A study of Homo sapiens with 12 samples.

Results

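The collagen genes of hCMEC/D3 cells exposed to particles were described across 12 RNA sequencing libraries. They were the 44 of 58735 rows of the deposited gene table whose name is COL, a number, A and a number, so the choice used names and no measured value. hCMEC/D3 is an immortalised human brain microvascular endothelial line widely used to model the blood-brain barrier in culture. Cells were given SiNPs of 58 nm or of 35 nm for 24 h at 100 µg/mL, or belonged to the Control group, and each of the 3 groups has 4 libraries. SiNPs are taken here to be silica nanoparticles, which the labels do not spell out. All groups share the same line and culture medium; the labels name no vehicle for the Control cells. Whether libraries within a group stem from independent cultures is not stated either, so the error behind each p-value is that between libraries and may be technical.

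Collagens are secreted proteins whose chains wind into a triple helix. In the basement membrane, the sheet on which endothelial cells sit, type IV chains form a network, and the types XV and XVIII carry glycosaminoglycan chains. Fibrillar collagens of the types I and V assemble into the fibrils of connective tissue. Others form beaded filaments (type VI), anchoring fibrils (type VII) or short-chain networks (type VIII), sit on fibril surfaces or span the cell membrane. Brain capillaries share a basement membrane with pericytes, and type IV collagen is its main collagen.

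Values are FPKM as the authors deposited them, that is, read counts scaled by gene length and by library size. Changes are log2 differences of log2(FPKM + 1) from limma, with the standard error where given, and p-values were adjusted by the Benjamini-Hochberg method across the 12176 genes averaging 1 FPKM or more. The words rose and fell are kept for an adjusted p under 0.05. Counts at an unadjusted p are given without the share of all genes, so they describe the listed members only. Both comparisons with Control use the same 4 Control libraries. Total reads in genes ranged from 9472317 to 10678269 per library. Of 10 endothelial markers, 5 had a mean of at least 1 FPKM, and their summed level was 11.4 to 11.8 FPKM at 58 nm, 10.1 to 11.9 FPKM at 35 nm and 10.95 to 12.8 FPKM in Control. TIE1, an endothelial receptor, averaged 5.15 FPKM and CDH5, the endothelial cadherin, 1.65 FPKM, while the defining endothelial genes CLDN5 and KDR averaged 0.102 and 0.009 FPKM. Of 12 fibroblast and mural cell markers, with collagens left out, 7 had a mean of at least 1 FPKM and the summed level was 99.2 to 105.7 FPKM at 58 nm, 92.7 to 98.1 FPKM at 35 nm and 96.3 to 101.9 FPKM in Control. Of these 7, 2 rose (28.6%) and 2 fell (28.6%) at 35 nm against Control, where 20.2% of all genes tested rose and 15.2% fell, 35.4% in all. PDGFRB, a receptor of mural cells, averaged 22.1 FPKM and fell by 0.31 (adjusted p = 0.000383), as did NOTCH3, a mural cell receptor, by 0.34 (adjusted p = 0.000396). CSPG4, a pericyte proteoglycan, averaged 16.3 FPKM and rose by 0.35 (adjusted p = 0.000331), and THY1, a surface protein of fibroblasts, rose by 0.16 (adjusted p = 0.0269). THY1 also rose at 58 nm against Control, by 0.19 (adjusted p = 0.0466). In the same list, PDGFRA averaged 0.0246 FPKM, DCN 0.162 FPKM, RGS5 0.479 FPKM, DES 0.0788 FPKM and KCNJ8 0 FPKM. The part of these markers in the collagen results was not tested, and in bulk RNA a different number of cells of a type and a different amount of RNA per cell cannot be told apart.

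Of the 44 collagen genes, 19 had a mean of at least 1 FPKM and were tested: 5 of 8 basement membrane genes, 6 of 11 fibrillar genes and 8 of 25 others. The lowest gene inside that limit was COL27A1 with a mean of 1.08 FPKM and the highest outside it was COL4A6 with 0.751 FPKM. The level was concentrated in few genes: 4 members exceeded 100 FPKM, 8 lay at 10 to 100 FPKM and 7 at 1 to 10 FPKM. The mean over 12 libraries was 269 FPKM for COL6A1, 206 FPKM for COL6A2, 145 FPKM for COL1A1 and 112 FPKM for COL1A2. These chains of the types VI and I made up 81.2 ± 0.527% of the summed collagen FPKM at 58 nm, 81.1 ± 0.557% at 35 nm and 80.4 ± 0.102% in Control (SD, n = 4). The type IV chains COL4A2 and COL4A1 followed with means of 32.6 and 25.3 FPKM, so the main basement membrane pair stood well below the type VI and type I chains per kilobase of gene.

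**Figure D1:**
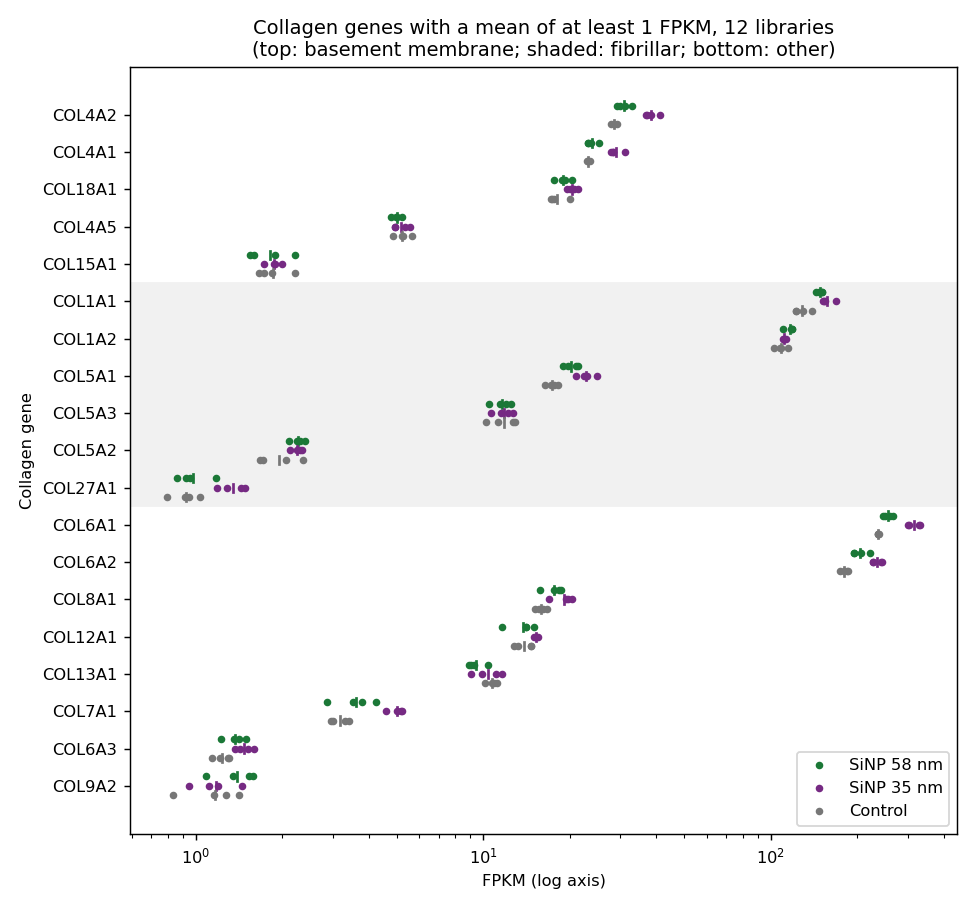
Each row is a collagen gene with a mean of at least 1 FPKM, each point is 1 library on a log axis of FPKM, and short lines mark group means (58 nm, 35 nm and Control, n = 4 each). COL6A1, COL6A2, COL1A1 and COL1A2 lie above 100 FPKM in every library, and the 35 nm points of COL4A1, COL4A2, COL6A1 and COL7A1 lie above all points of both other groups.

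Collagen genes together took 0.735 ± 0.00816% of gene reads at 58 nm, 0.810 ± 0.0226% at 35 nm and 0.676 ± 0.0162% in Control (SD, n = 4). The ranges of the 3 groups did not overlap: 0.728 to 0.746% at 58 nm, 0.787 to 0.831% at 35 nm and 0.660 to 0.696% in Control. By class, the summed level of basement membrane genes was 81.3 ± 2.51 FPKM at 58 nm, 95.4 ± 4.15 FPKM at 35 nm and 77.6 ± 1.46 FPKM in Control. Fibrillar genes summed to 301 ± 9.13 FPKM at 58 nm, 308 ± 9.92 FPKM at 35 nm and 270.4 ± 12.8 FPKM in Control. The other collagens summed to 509 ± 19.6 FPKM at 58 nm, 605 ± 24.7 FPKM at 35 nm and 466 ± 5.52 FPKM in Control. In the basement membrane and the other class the 35 nm libraries lay above those of both other groups, whereas the fibrillar sums of both particle groups overlapped and lay above Control. These sums are descriptions and were not tested.

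At 35 nm against Control, 10 of the 19 tested collagen genes (52.6%) rose and 0 fell; over all genes tested, 20.2% rose and 15.2% fell, 35.4% in all. The 10 were COL4A1, COL4A2 and COL18A1 of the basement membrane, COL1A1, COL5A1 and COL27A1 of the fibrillar class, and COL6A1, COL6A2, COL7A1 and COL8A1 of the others. No collagen gene was lower at an unadjusted p under 0.05 either. Limma-voom on recovered reads gave 11 higher and 0 lower, and over all 12176 genes 2273 higher and 2401 lower. The median change of the 19 was 0.17 on the log2 scale, beside 0.003 for all genes tested, and the groups did not overlap for 11 of them, all higher at 35 nm (of all genes tested, 19.7% were higher and 16.3% lower without overlap, 36% in all). With 58 nm particles against Control, 2 of the 19 (10.5%) rose, COL1A1 and COL5A1, and 0 fell, where 2.18% of all genes rose and 1.95% fell, 4.13% in all. Without adjustment 6 were higher and 1, COL13A1, was lower in that comparison. Limma-voom gave 3 higher and 0 lower there, and over all 12176 genes 342 higher and 376 lower. The median change was 0.10, beside 0.01 for all genes, and for 5 members the groups did not overlap, all higher at 58 nm (of all genes, 7.56% were higher and 5.92% lower without overlap, 13.5% in all).

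Between the particle sizes, 5 of the 19 (26.3%) were lower at 58 nm than at 35 nm and 0 were higher, where 7.81% of all genes were lower and 3.54% higher, 11.4% in all. The 5 were COL4A1, COL4A2, COL6A1, COL6A2 and COL7A1; the other tested chains of the types IV and VI, COL4A5 and COL6A3, did not pass. Unadjusted, 8 were lower and 0 higher. Limma-voom gave 7 lower and 0 higher, and over all 12176 genes 960 lower and 837 higher. No fibrillar gene was among the 5, and the median change of that class was -0.05, beside -0.12 for the 19 and 0.003 for all genes. The 2 genes that limma-voom added were both fibrillar, COL5A1 and COL27A1. In limma they had changes of -0.17 and -0.25 (adjusted p = 0.0723 and 0.1003), so that class was not clearly spared. The groups did not overlap for 8 members, 2 of them fibrillar, all lower at 58 nm (of all genes, 9.9% were lower and 6.29% higher without overlap, 16.2% in all).

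**Figure D2:**
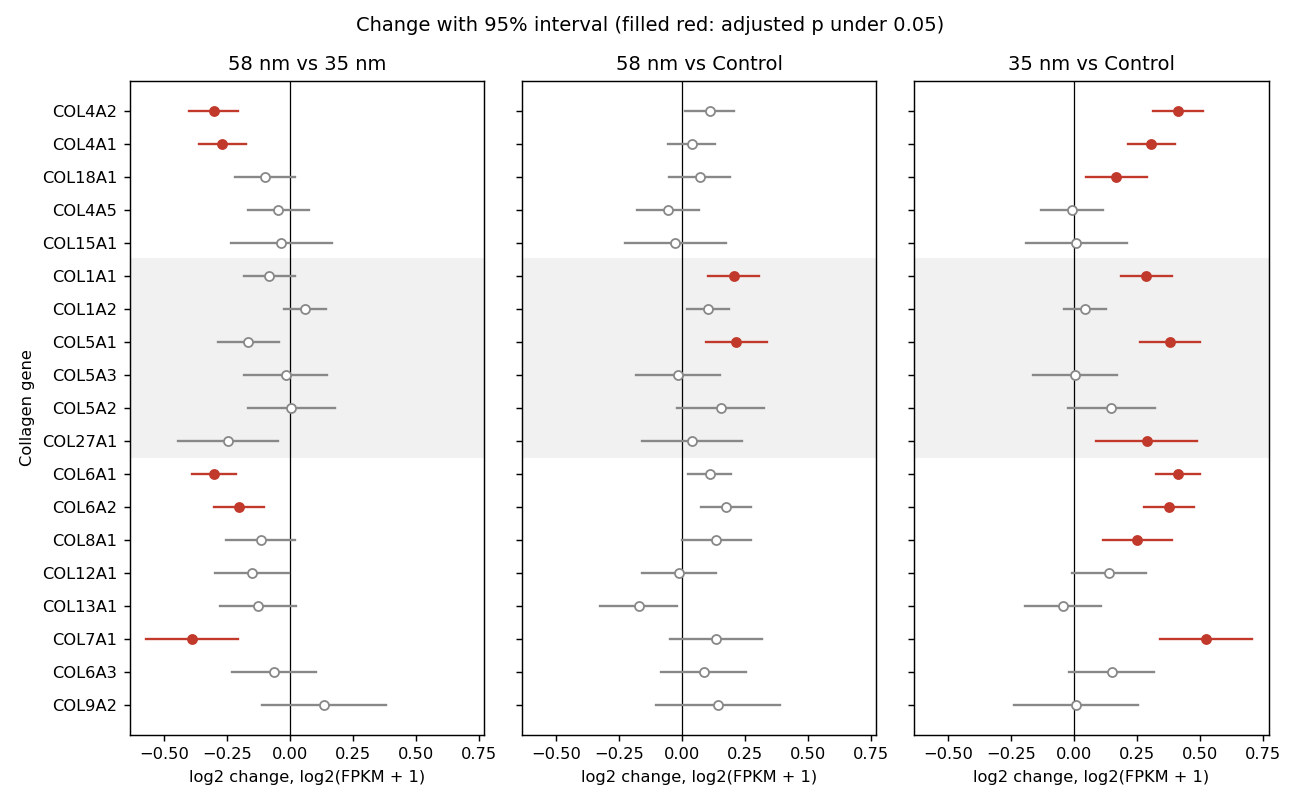
Points are log2 changes of the 19 tested collagen genes (log2(FPKM + 1)) with 95% intervals for 58 nm vs 35 nm, 58 nm vs Control and 35 nm vs Control; filled red points have an adjusted p under 0.05. Basement membrane genes are at the top, fibrillar genes are shaded and others are at the bottom; 10 points are red at 35 nm vs Control, 2 at 58 nm vs Control and 5 at 58 nm vs 35 nm.

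COL4A1 and COL4A2 encode the chains of the type IV network found in nearly all basement membranes. They lie head to head on chromosome 13, COL4A1 on the minus strand (110148963 to 110307233) and COL4A2 on the plus strand (110305812 to 110513209), in GRCh38 coordinates as in the deposited table. COL4A1 had 23.1, 25.2, 23.2 and 23.7 FPKM in the 58 nm libraries, 31.1, 28.2, 28.3 and 27.9 FPKM in the 35 nm libraries and 23.0, 23.5, 23.1 and 23.1 FPKM in Control libraries. Every 35 nm library was above every other library, and the 58 nm and Control libraries overlapped. COL4A1 rose at 35 nm by 0.31 ± 0.0429 against Control (adjusted p = 0.000179), was 0.04 higher at 58 nm than in Control (adjusted p = 0.678) and was lower at 58 nm than at 35 nm, with a change of -0.27 ± 0.0429 (adjusted p = 0.00206). COL4A2 had 32.9, 31.2, 30.0 and 29.3 FPKM at 58 nm, 41.1, 37.2, 38.3 and 36.7 FPKM at 35 nm and 28.5, 27.8, 28.6 and 29.2 FPKM in Control. The 35 nm libraries were again highest, and all 58 nm libraries were above all Control libraries. COL4A2 rose at 35 nm by 0.41 ± 0.0455 (adjusted p = 3.01e-05), differed by 0.11 at 58 nm from Control (adjusted p = 0.202) and was lower at 58 nm than at 35 nm by a change of -0.30 ± 0.0455 (adjusted p = 0.0014). The ratio of COL4A1 to COL4A2 was 0.703 to 0.809 at 58 nm, 0.739 to 0.761 at 35 nm and 0.789 to 0.847 in Control, so every 35 nm library was below every Control library.

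The promoter windows of the pair overlap. The windows reach from 250 bases before to 50 bases after the start site, in GRCh38.p14 from RefSeq, where 32 of the 44 collagen genes have at least 1 window. The 2 RefSeq start sites are separated by 126 bases and the windows share 226 bases, read on opposite strands. They are shown because both genes moved together, with COL4A5 as a type IV chain that did not pass in any comparison. Capitals mark GGGCGG and CCAAT on either strand, so CCGCCC and ATTGG are in capitals too.
COL4A1: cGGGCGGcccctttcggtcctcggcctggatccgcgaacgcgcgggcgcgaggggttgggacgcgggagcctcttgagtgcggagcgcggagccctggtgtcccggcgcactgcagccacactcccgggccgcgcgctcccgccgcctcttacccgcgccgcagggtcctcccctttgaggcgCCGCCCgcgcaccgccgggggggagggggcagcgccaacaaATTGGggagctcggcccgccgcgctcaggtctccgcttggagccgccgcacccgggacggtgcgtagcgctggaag
COL4A2: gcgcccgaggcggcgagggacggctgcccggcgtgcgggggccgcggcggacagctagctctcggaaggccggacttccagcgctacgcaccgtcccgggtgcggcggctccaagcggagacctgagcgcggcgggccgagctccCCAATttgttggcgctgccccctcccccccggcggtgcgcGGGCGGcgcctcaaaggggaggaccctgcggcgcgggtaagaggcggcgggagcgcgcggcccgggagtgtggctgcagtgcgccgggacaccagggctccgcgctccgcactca
COL4A5: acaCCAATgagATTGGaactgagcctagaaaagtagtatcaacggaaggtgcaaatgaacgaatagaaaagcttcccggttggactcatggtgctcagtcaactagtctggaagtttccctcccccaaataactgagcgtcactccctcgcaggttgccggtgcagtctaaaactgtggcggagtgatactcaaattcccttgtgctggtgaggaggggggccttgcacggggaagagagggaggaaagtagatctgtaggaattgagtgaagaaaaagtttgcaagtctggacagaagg
The COL4A1 window is chr13:110307108-110307407 on the minus strand, the COL4A2 window chr13:110307034-110307333 on the plus strand and the COL4A5 window chrX:108439588-108439887 on the plus strand. In the shared stretch, the same GGGCGG lies at positions -67 to -62 from the COL4A1 start site and -65 to -60 from that of COL4A2. The same CCAAT lies at -26 to -22 from the COL4A1 start site and -105 to -101 from that of COL4A2. The COL4A1 window holds 2 GGGCGG in all, and the COL4A5 window holds 0 GGGCGG and 2 CCAAT. Of 35116 RefSeq windows, 44.95% hold GGGCGG and 34.61% hold CCAAT on either strand. Among the 14 tested collagen genes with a window, 11 hold GGGCGG, 4 hold CCAAT, 4 hold TATAAA (11.53% of all windows) and 0 hold TGANTCA (7.71%). These counts are per gene, over all windows of that gene, whereas the shares are per window. COL4A1 and COL4A2 are counted separately although they share a GGGCGG and a CCAAT. No match overlapped a match of a different motif in a collagen window, and overlaps between matches of the same motif were not counted. A match is a description of letters, and no binding was measured.

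In both comparisons that involve the 35 nm group, the other tested basement membrane genes changed less than COL4A1 and COL4A2. COL18A1 encodes the chain that releases endostatin and lies on chromosome 21 (45405137 to 45513720). It had 19.2, 20.4, 18.8 and 17.6 FPKM at 58 nm, 21.3, 20.02, 20.6 and 19.6 FPKM at 35 nm and 20.02, 17.7, 17.3 and 17.3 FPKM in Control. The 35 nm and Control libraries overlapped, because Control library 1 was as high as the lower 35 nm libraries. COL18A1 rose at 35 nm by 0.17 ± 0.0554 (adjusted p = 0.032), with changes of 0.07 at 58 nm against Control and -0.10 at 58 nm against 35 nm (adjusted p = 0.531 and 0.27). Its call was lost without Control library 2, 3 or 4 or 35 nm library 1 or 3 (adjusted p = 0.0676 to 0.0890), and 16.4% of its exon bases are shared with SLC19A1 on the opposite strand, whose reads cannot be told apart where strand was not kept. COL4A5, the type IV chain of kidney and other specialised basement membranes, had 4.98, 4.78, 5.21 and 5.01 FPKM at 58 nm, 4.92, 5.35, 5.56 and 4.94 FPKM at 35 nm and 5.20, 4.85, 5.26 and 5.64 FPKM in Control. The 3 groups overlapped, with changes of -0.05 at 58 nm against 35 nm, -0.06 at 58 nm against Control and -0.01 at 35 nm against Control (adjusted p = 0.631, 0.63 and 0.918). COL15A1, a relative of COL18A1 in vessel walls, averaged 1.82, 1.87 and 1.86 FPKM at 58 nm, 35 nm and in Control, with changes of -0.03, -0.03 and 0.01 in the same 3 comparisons (adjusted p = 0.839, 0.91 and 0.957).

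COL1A1 and COL1A2 encode the chains of type I collagen, the main fibril collagen of skin, bone and tendon. COL1A1 (chromosome 17, 50183289 to 50201632) had 144, 151, 151 and 147 FPKM at 58 nm, 154, 153, 168 and 152 FPKM at 35 nm and 139.7, 129.6, 123 and 122 FPKM in Control. All libraries of both particle groups were above all Control libraries, all 35 nm libraries were above all 58 nm libraries, and 35 nm library 3 was the highest. COL1A1 rose by 0.20 ± 0.0473 at 58 nm (adjusted p = 0.0304) and by 0.29 ± 0.0473 at 35 nm (adjusted p = 0.000583), and the particle sizes differed by -0.08, 58 nm against 35 nm (95% interval -0.18 to 0.02, adjusted p = 0.28). COL1A2 (chromosome 7, 94394561 to 94431232) had 110.3, 118, 119 and 118 FPKM at 58 nm, 111, 112, 113 and 110.1 FPKM at 35 nm and 108, 115, 108 and 103 FPKM in Control. The 3 groups overlapped, with changes of 0.06 at 58 nm against 35 nm, 0.10 at 58 nm against Control and 0.04 at 35 nm against Control (adjusted p = 0.33, 0.166 and 0.441). The ratio of COL1A1 to COL1A2 was 1.24 to 1.31 at 58 nm, 1.37 to 1.49 at 35 nm and 1.13 to 1.29 in Control. The chains therefore shifted unequally at 35 nm in the deposited values, where every library had a higher ratio than every library of the other groups.

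COL5A1, a chain of the type V collagen that starts and narrows type I fibrils, lies on chromosome 9 (134641774 to 134844843). It had 18.9, 21.0, 21.3 and 19.8 FPKM at 58 nm, 24.9, 22.5, 23.0 and 21.0 FPKM at 35 nm and 18.2, 17.1, 16.4 and 17.6 FPKM in Control. Both particle groups lay above Control and overlapped each other. COL5A1 rose by 0.21 ± 0.0557 at 58 nm (adjusted p = 0.0484) and by 0.38 ± 0.0557 at 35 nm (adjusted p = 0.00025), with -0.17 between 58 nm and 35 nm (adjusted p = 0.0723). Of the collagen calls, that of COL5A1 at 58 nm against Control was kept least often, in 3 of 12 fits with 1 library left out. The COL1A1 call at 58 nm was kept in 7 of 12, as were those of COL18A1 and COL27A1 at 35 nm against Control. At 58 nm against Control, COL1A1 lost its call without Control library 2, 3 or 4 or 58 nm library 2 or 3 (adjusted p = 0.0702 to 0.103). COL5A1 lost it without any 1 Control library, 35 nm library 2 or 3 or 58 nm library 2, 3 or 4 (adjusted p = 0.0561 to 0.147). The other type V chains, COL5A3 and COL5A2, averaged 11.7 and 2.16 FPKM over the 12 libraries. COL5A3 changed by -0.02, -0.02 and 0.002 and COL5A2 by 0.005, 0.15 and 0.15 at 58 nm against 35 nm, 58 nm against Control and 35 nm against Control, with adjusted p-values of 0.171 to 0.989. COL27A1, a fibrillar collagen of developing cartilage, had 0.927, 1.18, 0.952 and 0.861 FPKM at 58 nm, 1.44, 1.28, 1.49 and 1.19 FPKM at 35 nm and 1.04, 0.798, 0.947 and 0.914 FPKM in Control. It rose at 35 nm against Control by 0.29 ± 0.0921 (adjusted p = 0.0277), a call lost without Control library 2, 3 or 4 or 35 nm library 1 or 3 (adjusted p = 0.0528 to 0.0780). Its changes at 58 nm were 0.04 against Control and -0.25 against 35 nm (adjusted p = 0.857 and 0.1003).

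**Figure D3:**
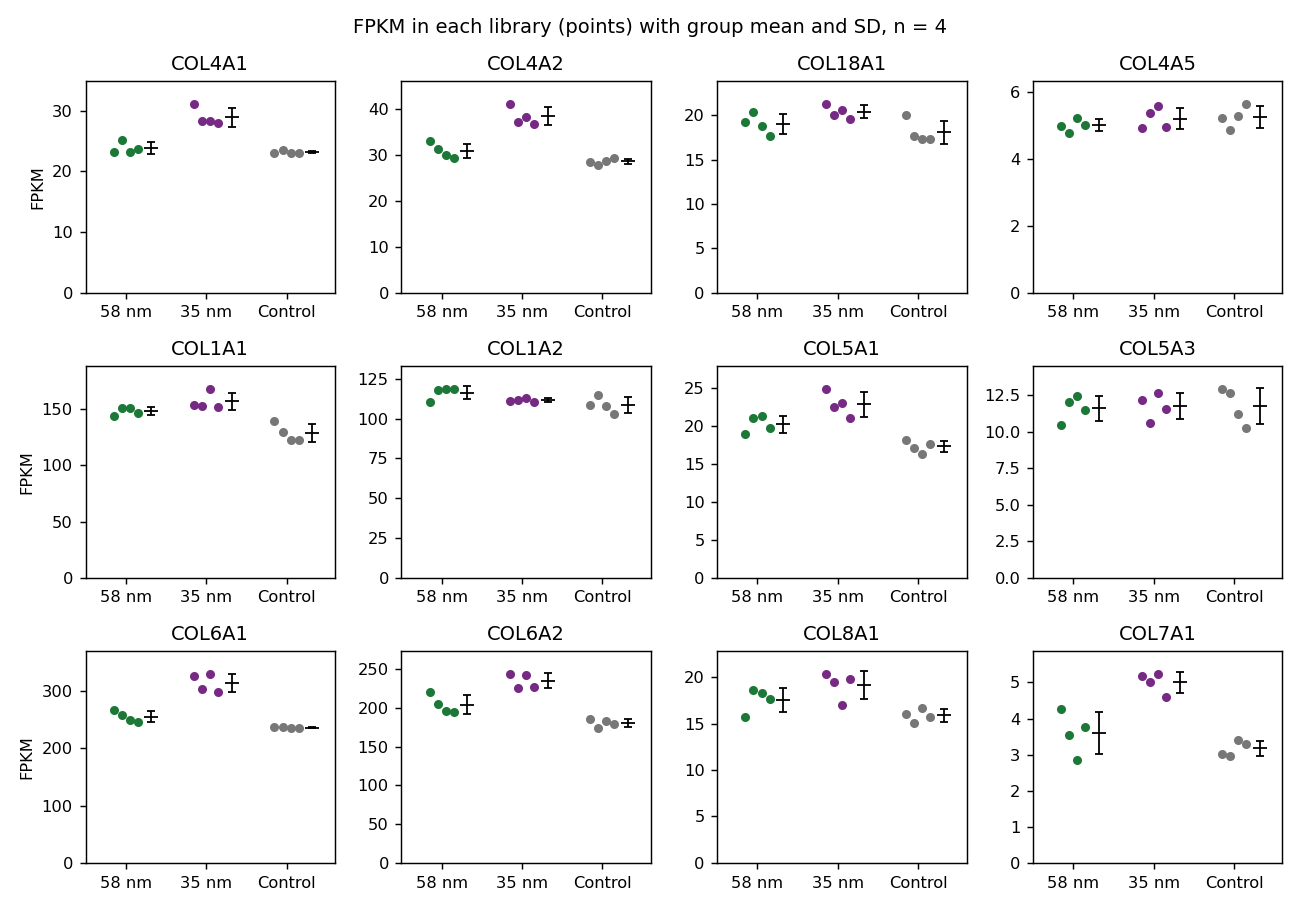
FPKM of 12 collagen genes in each library (points, axis from 0) with the group mean and SD (black, n = 4) for 58 nm, 35 nm and Control. The 35 nm libraries stand above both other groups for COL4A1, COL4A2, COL6A1, COL6A2 and COL7A1, and the groups overlap for COL4A5 and COL5A3.

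Type VI collagen forms the beaded filaments that surround many cells and anchor basement membranes to the matrix beneath. COL6A1 and COL6A2 lie on the same strand of chromosome 21 (45981737 to 46005050 and 46098097 to 46132849) with 93046 bases between them. COL6A1 had 267, 259, 249 and 246 FPKM at 58 nm, 327, 304, 330.3 and 299 FPKM at 35 nm and 237, 238, 236 and 235 FPKM in Control. The 3 groups were fully separated, 35 nm highest and Control lowest. COL6A1 rose at 35 nm by 0.41 ± 0.0401 (adjusted p = 1.18e-05), was 0.11 higher at 58 nm than in Control (adjusted p = 0.151) and was lower at 58 nm than at 35 nm, by a change of -0.30 ± 0.0401 (adjusted p = 0.000747). COL6A2 had 221, 206, 195 and 194 FPKM at 58 nm, 244, 226, 243 and 227 FPKM at 35 nm and 186, 174, 184 and 179 FPKM in Control. Its groups were separated in the same order. COL6A2 rose at 35 nm by 0.38 ± 0.0462 (adjusted p = 6.4e-05), was 0.17 higher at 58 nm than in Control (95% interval 0.07 to 0.27, adjusted p = 0.0522) and was lower at 58 nm than at 35 nm, by a change of -0.20 ± 0.0462 (adjusted p = 0.0143). Without 58 nm library 3 or 4 the last call was lost (adjusted p = 0.0509 and 0.0505). COL6A3, which encodes the longest chain of classical type VI collagen, averaged 1.37, 1.48 and 1.24 FPKM at 58 nm, 35 nm and in Control, a level 0.00471 to 0.00538 times that of COL6A1. Its changes were -0.06 at 58 nm against 35 nm, 0.09 at 58 nm against Control and 0.15 at 35 nm against Control (adjusted p = 0.64, 0.588 and 0.159).

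COL7A1, the anchoring fibril collagen of skin, lies on chromosome 3 (48564073 to 48595267) and had the highest fold of group means among the 19 tested collagens at 35 nm against Control. It had 4.25, 3.54, 2.86 and 3.78 FPKM at 58 nm, 5.17, 5.002, 5.23 and 4.59 FPKM at 35 nm and 3.01, 2.97, 3.41 and 3.31 FPKM in Control. All 35 nm libraries were above all others, 1.58 times the Control mean, and the 58 nm libraries lay on both sides of Control. COL7A1 rose at 35 nm by 0.52 ± 0.0847 (adjusted p = 0.000507), differed by 0.14 at 58 nm from Control (adjusted p = 0.404) and was lower at 58 nm than at 35 nm, by a change of -0.39 ± 0.0847 (adjusted p = 0.0116). COL8A1, a short-chain collagen of vessel walls and of the cornea, had 15.7, 18.6, 18.3 and 17.6 FPKM at 58 nm, 20.3, 19.5, 17.0 and 19.7 FPKM at 35 nm and 16.1, 15.1, 16.7 and 15.7 FPKM in Control. The 35 nm libraries were above Control and the 58 nm libraries overlapped both. COL8A1 rose at 35 nm by 0.25 ± 0.0634 (adjusted p = 0.00836), with 0.13 at 58 nm against Control and -0.12 at 58 nm against 35 nm (adjusted p = 0.258 and 0.252).

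Windows of COL6A2 and COL7A1 are printed as those of called genes outside the type IV family, with the same capitals.
COL6A2: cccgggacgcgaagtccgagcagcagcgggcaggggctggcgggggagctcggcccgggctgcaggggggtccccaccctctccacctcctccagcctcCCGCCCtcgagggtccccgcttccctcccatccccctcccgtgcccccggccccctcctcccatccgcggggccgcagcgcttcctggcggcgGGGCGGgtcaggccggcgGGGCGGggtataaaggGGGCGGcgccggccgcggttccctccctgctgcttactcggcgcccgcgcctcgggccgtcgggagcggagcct
COL7A1: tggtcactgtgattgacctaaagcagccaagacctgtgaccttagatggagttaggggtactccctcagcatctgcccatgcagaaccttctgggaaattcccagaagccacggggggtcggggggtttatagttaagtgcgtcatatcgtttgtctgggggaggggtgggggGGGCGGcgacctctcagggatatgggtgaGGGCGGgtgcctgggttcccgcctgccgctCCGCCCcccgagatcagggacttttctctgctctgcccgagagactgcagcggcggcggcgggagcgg
The COL6A2 window is chr21:46097862-46098161 on the plus strand and the COL7A1 window chr3:48595280-48595579 on the minus strand, from RefSeq in GRCh38.p14. COL6A2 has 4 GGGCGG and COL7A1 has 3, and neither has a CCAAT. COL6A2 also has TATAAA at positions -32 to -27 from its start site on the gene's own strand, and COL7A1 has it at -124 to -119 on the other strand. The starting points used by these cells were not measured.

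The remaining tested collagens did not pass in any comparison. COL12A1, a fibril-associated collagen, averaged 13.7 ± 1.44 FPKM at 58 nm, 15.3 ± 0.182 FPKM at 35 nm and 13.8 ± 0.978 FPKM in Control (SD, n = 4). Its 35 nm libraries were above all others, with changes of -0.15 at 58 nm against 35 nm, -0.01 at 58 nm against Control and 0.14 at 35 nm against Control (adjusted p = 0.173, 0.943 and 0.138). COL13A1, a membrane-spanning collagen of cell adhesions, averaged 9.43 ± 0.663 FPKM at 58 nm, 10.4 ± 1.15 FPKM at 35 nm and 10.7 ± 0.407 FPKM in Control, with changes of -0.13, -0.17 and -0.05 in the same order (adjusted p = 0.254, 0.187 and 0.649). COL9A2, a cartilage collagen carried on fibrils, averaged 1.39, 1.18 and 1.17 FPKM at 58 nm, 35 nm and in Control, with changes of 0.13, 0.14 and 0.01 (adjusted p = 0.48, 0.533 and 0.969). Of the 25 collagen genes under 1 FPKM, 9 had reads in every library, with means of 0.189 to 0.751 FPKM: COL4A6, COL16A1, COL8A2, COL17A1, COL3A1, COL11A2, COL9A3, COL11A1 and COL10A1. COL3A1, the fibrillar partner of type I collagen in skin and vessels, averaged 0.573 FPKM at 58 nm, 0.662 FPKM at 35 nm and 0.525 FPKM in Control, a low level beside that of COL1A1. A further 12 were at 0 in some libraries and had at most 5 reads in any library. For scale, 3 reads equal 0.274 to 0.313 FPKM for a gene of 1 kb. These were COL4A3 and COL4A4, the partners of COL4A5 in the kidney filter, COL2A1 of cartilage, and COL6A5, COL6A6, COL14A1, COL19A1, COL21A1, COL24A1, COL25A1, COL26A1 and COL28A1, with means of 0.000895 to 0.0146 FPKM. COL20A1, COL22A1, COL23A1 and COL9A1 were listed at 0 in every library, so 0 reads were recovered for them.

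Base composition and gene length differ between the tested collagens and all genes tested. The 19 tested collagens had a median GC content of 60.3% and a median length of 9819 bases, against 48.1% and 4634.5 bases for all genes tested. With trends of length and GC content removed in each library, 10 collagens were again higher at 35 nm than in Control and 0 lower, and 8 of the 10 genes were the same. Of all 12173 genes in that fit, 1984 were higher and 1338 lower. COL4A1 then changed by 0.26 (adjusted p = 0.000656), COL4A2 by 0.32 (adjusted p = 0.000264) and COL7A1 by 0.41 (adjusted p = 0.00266). COL6A1 changed by 0.26 (adjusted p = 1.54e-05), COL6A2 by 0.20 (adjusted p = 0.000248) and COL1A1 by 0.19 (adjusted p = 0.00167), smaller than the 0.41, 0.38 and 0.29 without the removal. COL18A1 (0.02, adjusted p = 0.727) and COL27A1 (0.20, adjusted p = 0.0982) no longer passed. COL1A2, the collagen with the lowest GC content of the 19 (41.7%, against 61.1% for COL1A1), changed by 0.18 (adjusted p = 0.0029) and COL12A1 by 0.20 (adjusted p = 0.0134). The unequal shift of the type I chains at 35 nm was thus not seen on that scale, with 0.19 for COL1A1 and 0.18 for COL1A2. The same removal at 58 nm against Control gave 0.17 for both, with adjusted p-values of 0.0162 for COL1A1 and 0.0189 for COL1A2. The share of higher genes among all genes called also moved with the scaling. At 35 nm against Control it was 57.1%, with 44.7% after upper-quartile rescaling and 50.9% after quantile normalization. At 58 nm against 35 nm it was 31.2%, with 48.2% and 43.8% after the same 2 scalings. At 58 nm against Control it was 52.7%, with 43.1% and 42.1%.

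**Figure D4:**
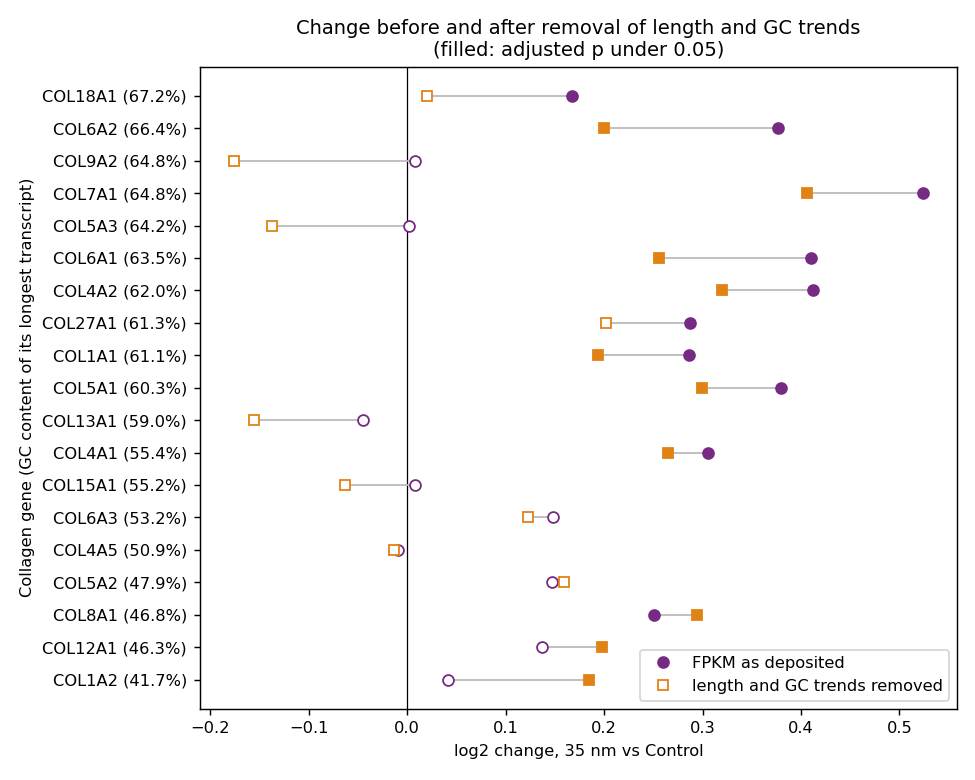
Log2 change at 35 nm vs Control of the 19 tested collagen genes, ordered by the GC content of their longest transcript, as deposited (purple circles) and after removal of length and GC trends (orange squares); filled symbols have an adjusted p under 0.05. COL6A1, COL6A2 and COL18A1 move left and COL8A1, COL12A1 and COL1A2 at 41.7 to 46.8% GC move right; COL1A1 and COL1A2 end at 0.19 and 0.18.

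Chains are hydroxylated, folded and trimmed by dedicated enzymes before fibrils are cross-linked. Of 20 folding and modification genes, 18 were tested, and at 35 nm against Control 12 rose (66.7%) and 1, TMEM38B, fell (5.56%), where 20.2% of all genes rose and 15.2% fell, with a median change of 0.17 beside 0.003 for all genes. P4HA2, a prolyl hydroxylase subunit, averaged 7.71 ± 0.322 FPKM at 58 nm, 9.56 ± 0.794 FPKM at 35 nm and 6.91 ± 0.272 FPKM in Control (SD, n = 4), and rose at 35 nm by 0.42 (adjusted p = 0.000154). PPIB, a prolyl isomerase, rose by 0.28 (adjusted p = 0.000576), as did the lysyl hydroxylase PLOD1 by 0.28 (adjusted p = 0.000773) and the collagen chaperone SERPINH1 by 0.29 (adjusted p = 0.00085). P3H1, a prolyl 3-hydroxylase, rose by 0.15 (adjusted p = 0.0294), a call lost without Control library 2 or 4 or 35 nm library 1 or 3 (adjusted p = 0.0547 to 0.0791). P4HB, the partner subunit of the prolyl hydroxylases and the highest of the list, averaged 116 FPKM at 58 nm, 118 FPKM at 35 nm and 109.5 FPKM in Control and rose by 0.10 (adjusted p = 0.0409), but changed by -0.02 after quantile normalization and after removal of length and GC trends. The P4HB call was also lost without any 1 Control library, 35 nm library 1 or 3 or 58 nm library 2 or 3 (adjusted p = 0.0518 to 0.107). None of the 18, a count of 0, passed in limma at 58 nm against Control, where 4.13% of all genes did. At an unadjusted p under 0.05, 8 were higher and 0 lower. Limma-voom gave 0, where it called 718 of all 12176 genes. Between the sizes, P4HA2, PLOD2 and COLGALT1 were lower at 58 nm than at 35 nm (-0.28, -0.21 and -0.17, adjusted p = 0.00884, 0.0494 and 0.0401), 16.7% of the 18 where 7.81% of all genes were lower, and 0 were higher; without 58 nm library 1 the number called was 9, and it was 1 without Control library 1, 2 or 3, 35 nm library 1 or 58 nm library 3 or 4.

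Of 10 genes for export of procollagen from the endoplasmic reticulum, all 10 were tested and 0 passed in any of the 3 comparisons. Of all genes tested, 11.4% passed at 58 nm against 35 nm, 4.13% at 58 nm against Control and 35.4% at 35 nm against Control. Unadjusted, 1 was higher and 1 lower at 58 nm against 35 nm. The unadjusted counts were 1 higher and 0 lower at 58 nm against Control, and 1 higher and 1 lower at 35 nm against Control. Limma-voom gave 0, 0 and 2 lower in these comparisons, where it called 1797, 718 and 4674 of all 12176 genes. MIA3, the TANGO1 receptor that loads procollagen into large carriers, averaged 8.94, 8.30 and 9.23 FPKM at 58 nm, 35 nm and in Control, with -0.14 at 35 nm against Control (adjusted p = 0.0685). MIA2, its relative, changed by -0.18 (adjusted p = 0.147) and SAR1A, a GTPase of the COPII coat, by 0.08 (adjusted p = 0.0845) in that comparison. At 58 nm against Control, CREB3L1, a transcription factor of collagen secretion, changed by 0.12 (adjusted p = 0.18), KLHL12, an adaptor that enlarges COPII carriers, by -0.08 (adjusted p = 0.421) and CREB3L2, the highest of the list, by 0.05 (adjusted p = 0.577).

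Of 18 cleavage and cross-linking genes, 12 were tested. At 35 nm against Control 6 rose (50%) and 2 fell (16.7%), where 20.2% of all genes rose and 15.2% fell, so the share that fell was near that of all genes. The median change was 0.17, beside 0.003 for all genes. LOX, the lysyl oxidase, averaged 22.2 ± 1.73 FPKM at 58 nm, 26.8 ± 1.77 FPKM at 35 nm and 18.6 ± 1.38 FPKM in Control (SD, n = 4). It rose at 35 nm by 0.51 (adjusted p = 0.000112) and was lower at 58 nm than at 35 nm by a change of -0.26 (adjusted p = 0.0253), a difference not called without 35 nm library 1, 2 or 4 or 58 nm library 4 (adjusted p = 0.0564 to 0.0667). Its relative LOXL2, which cross-links type IV collagen, averaged 62.1, 75.0 and 58.9 FPKM at 58 nm, 35 nm and in Control, and rose at 35 nm by 0.34 (adjusted p = 1.31e-05). LOXL1, the highest of the list, averaged 130.9 FPKM at 58 nm, 140.4 FPKM at 35 nm and 113 FPKM in Control and rose by 0.21 at 58 nm (adjusted p = 0.0367) and by 0.31 at 35 nm (adjusted p = 0.000614). The LOXL1 call at 58 nm was lost without Control library 2, 3 or 4 or any 1 of the 58 nm libraries (adjusted p = 0.0560 to 0.122). TGM2, a transglutaminase, went against these: it averaged 24.5 ± 2.02 FPKM at 58 nm, 30.0 ± 1.27 FPKM at 35 nm and 43.0 ± 2.18 FPKM in Control. The 3 groups were fully separated, and TGM2 fell by 0.79 at 58 nm (adjusted p = 3.54e-06) and by 0.51 at 35 nm (adjusted p = 4.1e-05). ADAMTS14, a procollagen N-propeptidase, averaged 2.19, 2.10 and 3.06 FPKM at 58 nm, 35 nm and in Control and fell by 0.35 at 58 nm (adjusted p = 0.0494) and by 0.38 at 35 nm (adjusted p = 0.00585). The ADAMTS14 call at 58 nm was lost when any 1 library except 58 nm library 3 was left out (adjusted p = 0.0581 to 0.133). Of the 12, 4 (33.3%) were lower at 58 nm than at 35 nm, LOX, LOXL2, PXDN and TGM2, and 0 were higher. Of all genes, 7.81% were lower and 3.54% higher. Unadjusted, 6 of the 12 were lower and 0 higher. Limma-voom gave 4 lower, and over all 12176 genes 960 lower.

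Of 10 collagen receptor genes, 8 were tested. At 35 nm against Control 1 rose (12.5%) and 2 fell (25%), 3 of 8 called, where 20.2% of all genes rose and 15.2% fell, 35.4% in all, so the number called was near that of all genes. The median change was -0.06, beside 0.003 for all genes. MRC2, the endocytic receptor that takes up collagen fragments, rose by 0.23 (adjusted p = 0.00136). ITGA10 averaged 16.4 ± 2.40 FPKM at 58 nm, 12.8 ± 0.736 FPKM at 35 nm and 19.2 ± 1.45 FPKM in Control and fell by 0.55 at 35 nm (adjusted p = 0.000571); it was 0.33 higher at 58 nm than at 35 nm (adjusted p = 0.0338), a difference lost without 35 nm library 1, 3 or 4 or 58 nm library 2, 3 or 4 (adjusted p = 0.0553 to 0.104). ITGA1, like ITGA10 the alpha chain of a collagen-binding integrin, fell by 0.30 at 35 nm (adjusted p = 0.00404). Against Control, 0 of the 8 passed in limma at 58 nm, where 4.13% of all genes did. Limma-voom gave 0 higher and 2 lower, and over all 12176 genes 342 higher and 376 lower. Unadjusted, 1 receptor was higher and 4 were lower. Among these, the integrin chain ITGA2 changed by -0.37 (adjusted p = 0.0722) and ITGA11 by -0.17 (adjusted p = 0.0645). ITGB1, their common beta chain and the highest of the list, averaged 276 FPKM at 58 nm, 269 FPKM at 35 nm and 271 FPKM in Control, with changes of 0.02 at 58 nm and -0.01 at 35 nm (adjusted p = 0.785 and 0.867), the second being 0.12 after removal of length and GC trends.

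**Figure D5:**
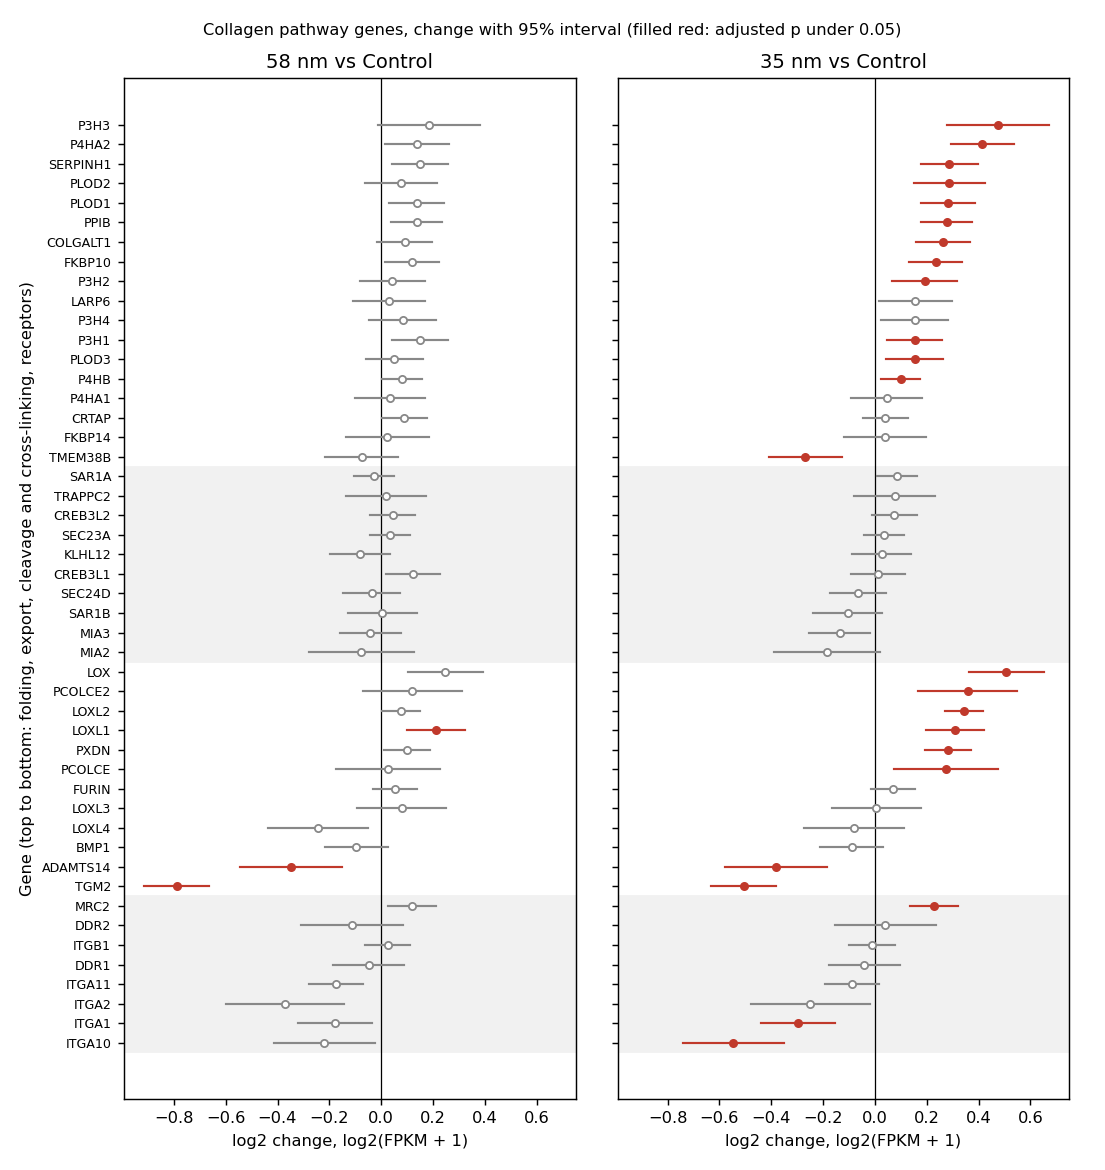
Log2 changes with 95% intervals of 48 tested collagen pathway genes at 58 nm vs Control (left) and 35 nm vs Control (right), from top to bottom folding and modification, export (shaded), cleavage and cross-linking, and receptors (shaded); filled red points have an adjusted p under 0.05. TGM2 has the lowest value in the left panel (-0.79), and LOX, P3H3 and P4HA2 lie above 0.4 in the right panel.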

How the data were processed

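The collagen genes, gene lists, tests and alternatives were chosen with earlier results of these data known. FPKM values of 58735 genes in 12 libraries were used as the authors deposited them, in 1 table. Bowtie 0.12.2 and hg19 are named, with no role given, per the submitters' processing notes. The deposited identifiers, coordinates and lengths of 58735 genes equal GENCODE 29, an annotation of GRCh38, so coordinates are GRCh38 and the alignment build is unresolved. The sources used here do not give the counting tool or its strand setting. FPKM times gene length gave whole reads for 100% of values (tolerance 0.01 reads), and the recovered reads served limma-voom as an alternative.

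Values were tested as log2(FPKM + 1) for 12176 genes averaging 1 FPKM or more. All 12 libraries entered 1 limma model (3.58.1, R 4.3.3) with a mean for each of 3 groups and a robust, trended prior. Two-sided p-values were Benjamini-Hochberg adjusted in each of 3 comparisons, with a threshold of 0.05. The step was tested on simulated data. GC content came from the longest GENCODE 29 transcript. The log2(FPKM + 1) scale understates changes of genes near the pseudocount of 1. Every member with a mean of at least 1 FPKM is named, with library values for called members of at least 5 FPKM and for the type IV pair; of each pathway list, the 3 smallest p in either comparison with Control and the highest gene are named. COL4A5, COL1A2, COL7A1, COL27A1, TMEM38B, PLOD2, COLGALT1, P3H3, PXDN and COL3A1 were singled out after their values were seen. Alternatives were another pseudocount, filter, scaling, model, trend removal, a replicate block and leaving out each library.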

Additional observations from a re-analysis of the deposited data

Results flagged for a closer look

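In 84 groups of 4 libraries (gene levels and chain ratios), 6 held a library far from the other 3 relative to the group's range (7.14%); chance flags about 1 in 20. COL1A1 was 168 FPKM in 35 nm library 3, where the other 35 nm libraries had 152 to 154 FPKM. The ratio of COL1A1 to COL1A2 was 1.49 in the same library, against 1.37 to 1.39 in the others, and its ratio of COL4A1 to COL4A2 was 0.739, against 0.758 to 0.761. COL4A1 was 31.1 FPKM in 35 nm library 1, where the others had 27.9 to 28.3 FPKM. COL1A2 was 110.3 FPKM in 58 nm library 1, where the others had 118 to 119 FPKM. COL18A1 was 20.02 FPKM in Control library 1, where the others had 17.3 to 17.7 FPKM. Without 35 nm library 1 or 3, the calls of COL1A1 and COL4A1 at 35 nm against Control were kept, and that of COL18A1 was kept without Control library 1.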

How the results depend on the processing

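Of the collagen counts, those at 35 nm against Control (main 10) were 8 to 13 and those at 58 nm against 35 nm (main 5) were 4 to 7 under every alternative tried, all in the same direction. At 58 nm against Control (main 2) the count was 0 without a filter and under quantile normalization, 1 under upper-quartile rescaling and 1 with a replicate block, and 0 to 2 when 1 library was left out. It was higher under other settings: a filter of 5 FPKM and limma-voom kept COL1A1 and COL5A1 and added COL6A2. Either trend removal kept COL1A1 and COL5A1 and added COL1A2. The labels do not say whether replicate numbers pair the libraries, and little pairing was seen. Same-number correlations were -0.0650 to 0.159 over 12 pairs, 1 was over 0.1 and 2 libraries had their own number as best partner. Low correlations cannot exclude shared handling by number. The replicate block kept 5 calls at 58 nm against 35 nm and 9 at 35 nm against Control; at 58 nm against Control it kept neither COL1A1 nor COL5A1 and added COL6A2. Quantile normalization ended the COL1A1 call at 35 nm (0.13, adjusted p = 0.0723) and gave COL1A2 -0.08 there (adjusted p = 0.209). Folding genes at 58 nm against 35 nm (main 3) numbered 1 without a filter and under both rescalings, 5 at a filter of 5 FPKM and 1 to 9 with a library left out; at 35 nm against Control (main 13) they numbered 7 under quantile normalization. Export genes (main 0) numbered 1 under quantile normalization, 1 with the length trend and 2 with both trends removed at 58 nm against 35 nm; at 35 nm against Control they numbered 1 under upper-quartile rescaling, 2 with limma-voom, 3 with either trend removal and 0 to 1 with a library left out. Cleavage genes numbered 2 under quantile normalization at 58 nm against 35 nm (main 4), 1 without a filter, 1 under quantile normalization and 1 to 3 with a library left out at 58 nm against Control (main 3), and 5 at a filter of 5 FPKM at 35 nm against Control (main 8). Receptors numbered 0 without a filter and 0 to 1 with a library left out at 58 nm against 35 nm (main 1), 2 at a filter of 5 FPKM, 2 with limma-voom, 1 with both trends removed, 1 with the block and 0 to 1 with a library left out at 58 nm against Control (main 0), and 5 under quantile normalization at 35 nm against Control (main 3). With both trends removed, CREB3L1 changed by -0.14 and ITGB1 by 0.12 at 35 nm against Control, the reverse of their signs, and P4HB by -0.0156; P4HB was -0.023 under quantile normalization. The summed level of other collagens in Control was 472 FPKM after upper-quartile rescaling (main 466). The cause of these shifts was not tested.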
